A study of Anopheles gambiae with 60 samples.

Results

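The accessory gland and the testis of adult male *Anopheles gambiae* were compared on 8 Affymetrix arrays, 4 of each tissue, out of 60 arrays that covered 15 groups of tissue and sex. The 8 arrays were chosen by their titles, and no measured value was used to choose them. All groups came from 1 strain, and no genotype or drug treatment separates them. The labels gave an age of 5 days, and the methods of the study state that males and females were separated as pupae, so the males were unmated. Each array was a biological replicate for which at least 10 males were dissected on each of 3 occasions, 24, 48 and 72 h after the females of the cohort had fed on blood, and 50 ng of the pooled RNA was amplified in 2 rounds. The blood meal concerned the females in the methods, whereas the labels named it for both sexes.

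The accessory glands are secretory organs that make the proteins of the seminal fluid. In *Anopheles* these proteins are coagulated into a mating plug that is passed to the female with the sperm, and the glands also hold steroid hormone. The testis contains germ cells at every stage from stem cells through meiosis to elongating spermatids, whose tails are built on an axoneme of microtubules, together with somatic cells that enclose them. Males carry a single X chromosome. In insects and worms in which it has been studied, transcription from the X in male germ cells can be lower than from the autosomes.

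A probe set, called a probe in what follows, was tested where its log2 intensity was at least 5 in 3 of the 4 arrays of either tissue, which 6188 of the 16884 mosquito probes did. With 4 arrays a tissue, precision is limited by that number. Within a tissue the arrays agreed closely: over the 16884 probes the Pearson correlation between replicates was 0.974 to 0.987 in the accessory gland and 0.988 to 0.994 in the testis. Accessory gland array 1 stood apart from the other 3 in a defined set of probes. There were 106 probes with a testis mean of at least log2 10 that were detected in none of the 7 female groups (ovary included), and 40 of these were at log2 5 or above on accessory gland array 1, against 4, 1 and 0 on arrays 2, 3 and 4. Their median level was 4.44 on array 1 and 2.70 to 2.96 on the others, beside 11.09 to 11.42 on the testis arrays. In the opposite direction, 37 probes were bright in the accessory gland and detected in no female group, and 3, 11, 0 and 0 of them reached log2 5 on testis arrays 1 to 4. The part of these signals in the comparison was not tested, and the counts of calls and the folds of the leading testis genes are given with and without array 1.

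The testis had the larger repertoire as deposited. It had 5583 probes detected and the accessory gland 3761, of which 3156 were shared, 2427 were detected in the testis alone and 605 in the accessory gland alone. Of the 6188 probes tested, 3341 (54.0%) were at least 2-fold higher in the testis and 1082 (17.5%) at least 2-fold higher in the accessory gland at an adjusted p under 0.05 in limma with Benjamini-Hochberg adjustment. Among the calls, 3302 and 1067 had all 4 arrays of the higher tissue above all 4 of the other, as did 81.1% of all probes tested in either direction. Without accessory gland array 1 the counts were 3370 and 1099. In whole-tissue RNA such as this, fewer cells of a type and less RNA per cell cannot be told apart.

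The size of this excess depended on how the tissues were scaled against each other, since the authors had normalized each tissue on its own. The testis took 75.5% of the calls as deposited, 65.0% when the arrays were centred on their median and 53.6% after quantile normalization, and the median difference over all probes tested (accessory gland minus testis) went from -1.27 to -0.68 and -0.13 on the log2 scale. Among the 3156 probes detected in both tissues the direction of the excess changed: 33.4% were higher in the testis and 17.6% in the accessory gland as deposited, 21.1% and 29.1% after centring, and 15.4% and 42.4% after quantile normalization. No probe called in one tissue was called in the other under any of these scalings. At 958 of the shared probes (30.4%) the 95% interval of the difference as deposited lay within 2-fold either way.

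**Figure D1:**
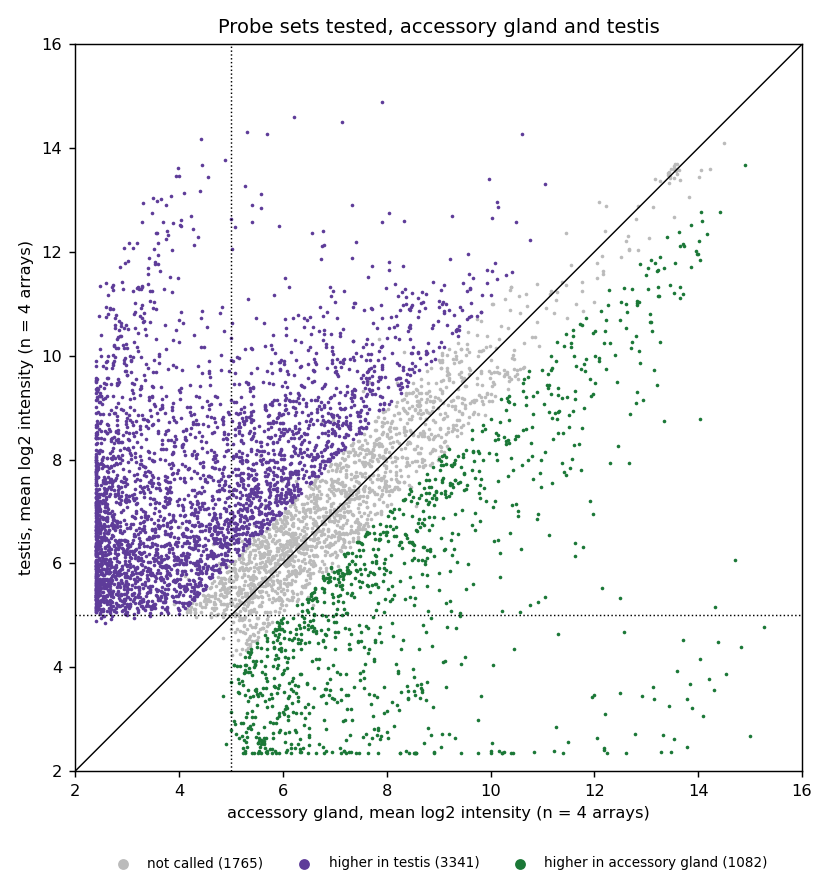
Mean log2 intensity of each of the 6188 probes tested in the accessory gland (x axis) and in the testis (y axis), 4 arrays each, coloured by the call, with dotted lines at the detection limit of log2 5 and a solid line where the levels are equal. Most testis calls have accessory gland levels under the limit, and a separate group of accessory gland calls lies above log2 12 with testis levels under 5.

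The accessory gland stood out by a small number of very bright probes. There were 43 probes at least 64-fold higher in the accessory gland when values under the detection limit were set to it, at 11.22 to 15.27 on the log2 scale, and the testis was under the limit on all 4 arrays for 26 of them. Of these 43 probes 40 were also detected in the male whole body, and 12 in any female group. The probe without a gene name that differed most by this measure, Ag.3R.3653.0_at, read 14.90, 15.01, 15.12 and 14.92 in the accessory gland and 2.57, 2.49, 3.25 and 2.42 in the testis. This was a difference of at least 1016-fold (adjusted p = 1.07e-10, limma), and outside the accessory gland the probe was detected only in the male whole body, at 11.32 ± 0.75 (SD, n = 4). A second, Ag.3R.2444.1_a_at, read 14.75, 14.81, 14.81 and 14.92 in the accessory gland and 4.37, 6.74, 3.21 and 3.21 in the testis, where testis array 2 alone was above the limit. Both lie on arm 3R by their identifiers, as did 23 of the 43 probes (53.5%), beside 22.1% of all probes tested. The 43 probes had 40 different identifier stems and those on 3R had 21, so that few of them were repeats of one design target.

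Genes could be named for 938 of the probes tested, and 155 of these were higher in the accessory gland, 553 higher in the testis and 230 in neither. Genes listed in fewer than 3 tissues by the study could not be named. Of the 43 probes at least 64-fold higher in the accessory gland 1 was named, and of the 22 at 256-fold 0 were. Towards the testis 15 of the 88 probes at 64-fold were named. The leading accessory gland genes below are therefore the leading ones among named genes only. Of the named genes, AGAP002429 differed most towards the accessory gland. It was entered in the list of accessory gland markers and of ecdysteroid synthesis as the cytochrome P450 CYP314A1, which makes the active moulting hormone 20-hydroxyecdysone. It read 12.05, 12.07, 12.53 and 12.12 in the accessory gland and 2.40 on all 4 testis arrays, at least 146-fold higher (adjusted p = 1.06e-10, limma). Among the 13 further groups it was detected only in the female carcass, at 5.37 ± 0.42 (SD, n = 4). The other markers written for the accessory gland, transglutaminase 3 and plugin, were not joined to a probe and are not analysed here.

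A further 6 of the 15 leading accessory gland genes were under the detection limit on all 4 testis arrays, so that their folds are lower bounds. AGAP010142 read 9.84, 10.33, 10.42 and 11.23 in the accessory gland, at least 43.8-fold above the testis. It was brighter in the male midgut (11.60 ± 0.37, SD, n = 4) than in the accessory gland (10.45 ± 0.58). AGAP000181, on the X, read 9.80, 10.13, 10.52 and 10.43 in the accessory gland and was at least 37.2-fold higher there. Apart from the accessory gland AGAP000181 was detected only in females, at 10.30 ± 0.47 in the Malpighian tubules, 7.98 ± 0.44 in the carcass, 7.04 ± 0.46 in the midgut and 6.17 ± 0.43 in the whole body. AGAP012304 was at least 32.6-fold and AGAP003539 at least 17.4-fold higher in the accessory gland, and AGAP003539 was next brightest in the ovary (7.66 ± 0.78). The remaining pair, AGAP007138 (at least 28.3-fold) and AGAP006063 (at least 20-fold), were brighter in the female salivary gland than in the accessory gland, at 11.49 ± 0.13 against 9.82 ± 0.19 and at 13.21 ± 0.15 against 9.33 ± 0.26. Both belong to the cluster of orthologues that the study described as salivary gland expression in the mosquito. The accessory gland listed with that cluster is the tissue of the fly clusters it overlapped. The annotation of the mosquito cluster was protein folding and signal peptide processing. The tissues were normalized separately, so these levels are set side by side without a test.

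The other leading genes were measured in both tissues. AGAP006088 was the brightest named gene of the 15, at 13.92, 14.04, 14.02 and 14.11 in the accessory gland and 8.78, 8.49, 8.68 and 9.21 in the testis. The tissues did not overlap, and the difference was 5.24 ± 0.16 on the log2 scale (SE, adjusted p = 2.30e-09, limma). AGAP009673 read 11.92, 11.87, 11.20 and 11.51 against 6.25, 6.57, 6.30 and 6.49, a difference of 5.22 ± 0.18 (SE), and in the other groups did not exceed 7.68 ± 0.32 (SD, n = 4), the level in the male Malpighian tubules. AGAP002415 read 10.84, 11.21, 10.99 and 11.14 in the accessory gland and 4.84, 5.13, 5.55 and 5.92 in the testis, 5.68 ± 0.23 apart (SE), and like AGAP010142 was brighter in the male midgut (11.72 ± 0.27, SD, n = 4). For AGAP005581, AGAP000749, AGAP001021, AGAP000273 and AGAP001545 the difference was 3.64 to 5.50 on the log2 scale, and the accessory gland arrays again all lay above the testis arrays. Of the 15 genes 4 lie on the X (AGAP000181, AGAP000749, AGAP001021 and AGAP000273), 5 were detected in all other 13 groups, and 8 were brighter in the accessory gland than in any other group. On the X were 46 of all 155 named genes higher in the accessory gland, but only 158 of all 1082 probes higher there. The X is therefore over-represented among the genes that could be named.

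**Figure D2:**
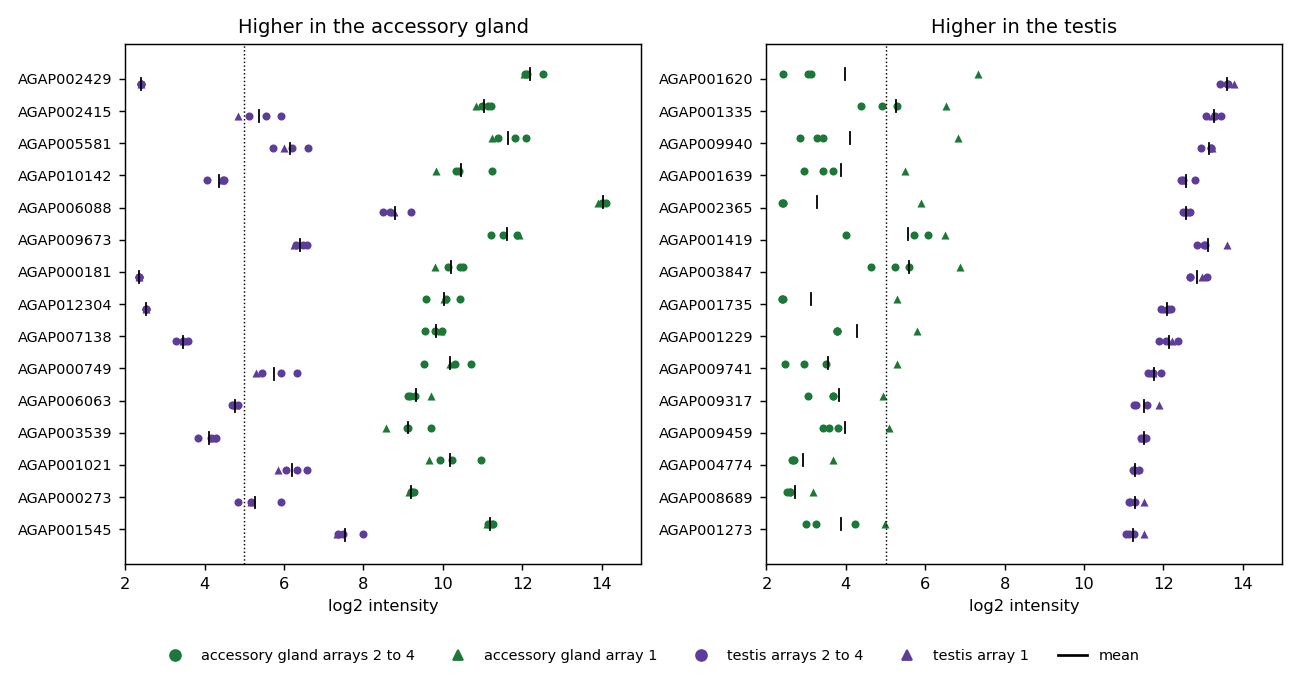
Log2 intensity on each array for the 15 named genes with the largest difference towards the accessory gland (left) and towards the testis (right), with green symbols for accessory gland arrays, purple for testis arrays, triangles for array 1 of each tissue, bars for the means and a dotted line at log2 5. The tissues do not overlap, which the choice of these genes required, and accessory gland array 1 is the highest of its tissue for all 15 testis genes.

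Towards the testis the differences were more numerous: 350 probes were at least 16-fold higher with values under the limit set to it, against 94 towards the accessory gland. At 64-fold the counts were 88 and 43, whereas at 256-fold they were 6 and 22. The 15 leading testis genes all belong to the cluster that the study assigned to the testis and annotated with microtubule-based process and spermatogenesis. So did 367 of all 553 named genes higher in the testis, beside 372 of the 938 named genes tested. The cluster was made from these same arrays, so membership is not independent evidence. Of the 15 genes 9 lie on 2R and 5 on 3R, arms with 30.8% and 22.1% of all probes tested. Which genes could be named also bears on these counts. All 15 were brighter in the testis than in any other group. The named gene with the largest difference, AGAP001620, read 13.79, 13.61, 13.64 and 13.42 in the testis and 7.32, 3.13, 2.42 and 3.04 in the accessory gland. The value of 7.32 came from accessory gland array 1, and the other 3 arrays were under the limit. With all arrays the difference (accessory gland minus testis) was -9.64 ± 0.94 on the log2 scale (SE, adjusted p = 7.14e-06, limma) and 262-fold with values under the limit set to it. Without array 1 AGAP001620 was at least 392-fold higher in the testis.

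Accessory gland array 1 was the highest of the 4 for all 15 genes and was at or above log2 5 for 11, whereas the other 3 arrays were all under the limit for 12. AGAP009940 read 6.82, 3.44, 2.84 and 3.27 in the accessory gland and 13.21, 13.20, 13.20 and 12.95 in the testis, 206-fold with all arrays and at least 282-fold without array 1. AGAP002365 read 5.89, 2.41, 2.41 and 2.40 against 12.57, 12.58, 12.67 and 12.48, 163-fold with all arrays and at least 191-fold without array 1. All 15 genes were called with and without array 1, and their median difference went from -8.21 to -8.63 on the log2 scale.

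Some of these genes were at or near the floor in the accessory gland on every array. AGAP008689 read 11.51, 11.16, 11.30 and 11.13 in the testis and 3.17, 2.60, 2.60 and 2.52 in the accessory gland, at least 77.4-fold higher in the testis. AGAP004774 was at least 78.4-fold, AGAP009317 at least 91.1-fold and AGAP001273 at least 75.4-fold higher in the testis, with all 4 accessory gland arrays under log2 5. Others were measured on more than 1 accessory gland array: AGAP001335 read 6.51, 5.29, 4.91 and 4.39 there and 13.22, 13.46, 13.31 and 13.07 in the testis, 225-fold with all arrays and 288-fold without array 1. AGAP001419 and AGAP003847 were above the limit on 3 accessory gland arrays each and were 157-fold and 145-fold higher in the testis, or 184-fold and 191-fold without array 1. AGAP001639, AGAP001735, AGAP001229, AGAP009741 and AGAP009459 reached the limit on accessory gland array 1 alone, and were 173-, 129-, 123-, 103- and 89.1-fold higher in the testis with values under the limit set to it. Without array 1 they were at least 189-, 136-, 141-, 108- and 90.5-fold higher.

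The leading testis genes differed in how many of the 13 further groups detected them, from 1 group for AGAP001735 and AGAP009741 to 10 for AGAP003847 and all 13 for AGAP001335. All 15 were detected in the male whole body, 9 in the female whole body and 7 in the ovary, among them AGAP009940 at 11.11 ± 0.38 and AGAP001335 at 10.09 ± 0.34 (SD, n = 4). The male salivary gland had 8 of them detected, with AGAP001620 at 7.20 ± 0.94 and AGAP002365 at 6.04 ± 0.84. Of the 106 bright testis probes that no female group had, 31 were detected in the male salivary gland, 8 in the male Malpighian tubules and 67 in the male whole body. The 2 unnamed probes with the largest difference towards the testis were Ag.2R.1859.0_CDS_at (14.16, 14.09, 14.34 and 14.13 in the testis, 8.10, 4.74, 2.43 and 2.43 in the accessory gland) and Ag.2R.2720.0_CDS_at (13.66, 13.45, 13.47 and 13.28 against 6.50, 4.00, 2.61 and 2.90). In both of them too, accessory gland array 1 was the highest of its tissue.

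**Figure D3:**
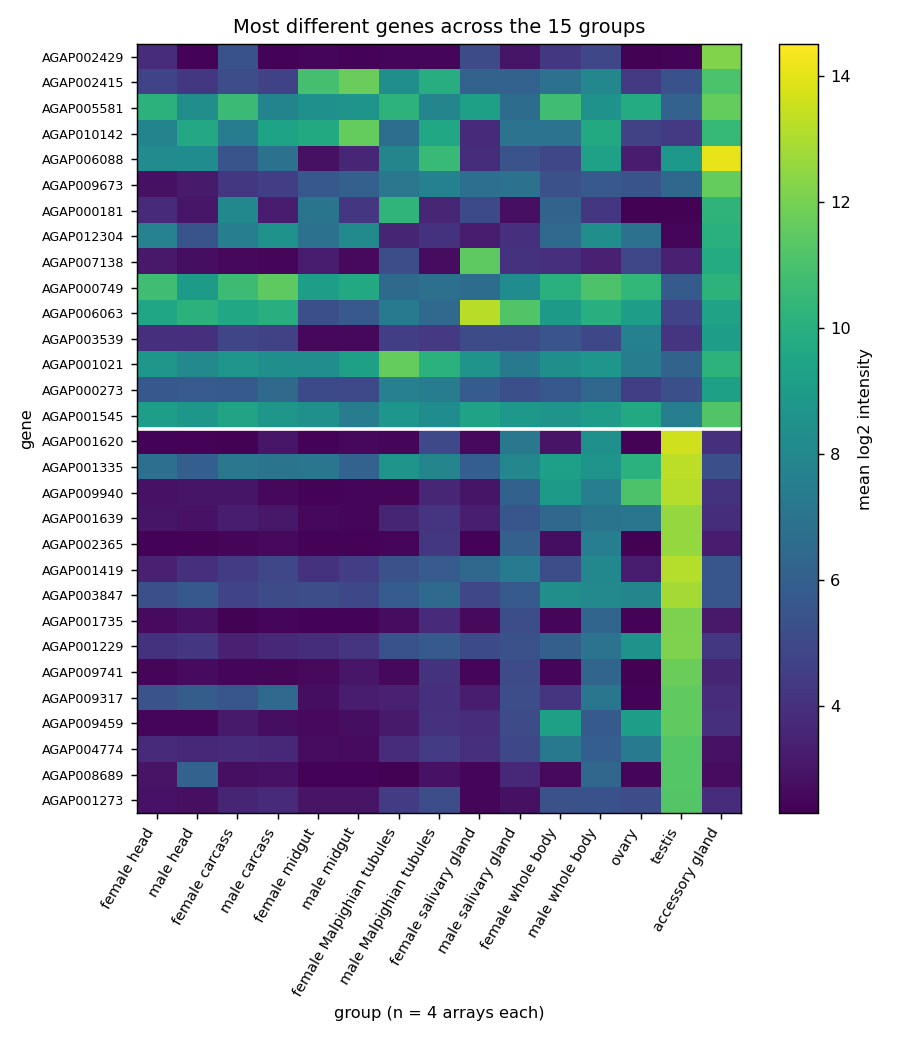
Mean log2 intensity (colour, n = 4 arrays) of the same 30 genes (rows) in each of the 15 groups (columns), with the accessory gland genes above the white line and the testis genes below it. The testis genes are brightest in the testis throughout, whereas 7 of the 15 accessory gland genes are brighter in another group than in the accessory gland.

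The accessory gland probes were detected across the rest of the body in a larger share than the testis probes, with no test of this difference. Of the 1082 probes higher in the accessory gland 413 (38.2%) were detected in all other 14 groups and 75 (6.93%) in none of them. Of the 3341 probes higher in the testis 563 (16.9%) were detected in all other 14 groups and 900 (26.9%) in none. Of all 6188 probes tested 1922 were detected in all 15 groups. The other 14 groups include the opposite tissue of the comparison. The testis detected 51.3% of the accessory gland probes, and the accessory gland 31.5% of the testis probes, which enters these counts. The male carcass, for example, had 73.0% of the accessory gland probes detected and 39.3% of the testis probes, beside 56.8% of all probes tested. The testis probes were detected at 59.2% in the female whole body, 53.3% in the ovary and 50.0% in the male whole body, each below the share of all probes tested there (70.3%, 63.1% and 65.5%). The accessory gland probes were detected at 81.1% in the male whole body and 61.8% in the ovary. When detection in the male whole body was allowed, 103 accessory gland probes and 929 testis probes were detected in no other tissue and not in the female whole body. Of those with a level of at least log2 10, the male whole body had 26 of the 33 accessory gland probes and 28 of the 67 testis probes detected.

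Genes detected everywhere also differed between the tissues, and those at log2 12 or above in either tissue were mostly higher in the accessory gland. Of the 1922 probes detected in all 15 groups 413 were higher in the accessory gland and 563 in the testis, beside 555 and 1053 of the 3156 detected in both tissues. Probes detected everywhere are detected in both tissues by definition, so all 6188 tested are not a like background for them. Of the 1922 probes 142 had a mean of at least log2 12 in either tissue, and 82 were higher in the accessory gland and 15 in the testis. For the same 142 probes, chosen on the deposited levels, the counts were 95 and 14 after centring and 67 and 18 after quantile normalization. A high mean in 1 tissue was enough to enter, and the accessory gland had 163 probes of any kind at log2 12 or above against 122 in the testis. From log2 10 the counts as deposited were closer, 204 and 158 of 496 probes. Probes that share an identifier stem measure related sequences, and the 142 probes had 115 stems. AGAP001274 read 13.81, 13.81, 13.83 and 13.95 in the accessory gland and 11.27, 11.75, 11.76 and 12.04 in the testis, 2.15 ± 0.16 higher on the log2 scale (SE, adjusted p = 1.18e-06, limma). AGAP000952, AGAP007157, AGAP007050 and AGAP003025 had differences of 2.27 to 2.77 in the same direction. Towards the testis the brightest were AGAP004937 (12.99, 12.81, 12.97 and 12.84 against 7.98, 7.09, 7.21 and 7.09), AGAP009264, AGAP009057, AGAP001151 and AGAP010336, with differences (accessory gland minus testis) of -2.09 to -5.56. By the rule used to name them, the tissues did not overlap for any of these 10 genes.

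A few bright genes were close to equal as deposited, chosen after their values were seen. AGAP004596 read 11.46, 10.94, 11.12 and 11.05 in the accessory gland and 11.45, 11.06, 11.15 and 11.08 in the testis. The log2 difference was -0.04 with a 95% interval from -0.39 to 0.30. For AGAP007786 it was 0.16 (-0.08 to 0.39) and for AGAP006645 0.39 (-0.09 to 0.87), with the arrays of the tissues overlapping in each case.

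The clusters that the study made from 1:1 orthologues of mosquito and fly group genes by their relative level over the tissues. They were made from these same arrays, so the counts below describe them and are not independent evidence. The ovary clusters of the study had no gene among those named and tested. In the spermatogenesis cluster, which the study assigned to the testis, 367 of the 372 genes tested were higher in the testis and none in the accessory gland. The median difference was -3.11 beside -1.27 over all probes tested. The 5 that were not called were also lower in the accessory gland, with differences between -0.57 and -0.91 on the log2 scale. None of the 372 lies on the X. Without accessory gland array 1 the count was again 367, and after centring and quantile normalization it was 335 and 290. A cluster without annotation in the study's table (A8) was the counterpart, with 30 of 30 genes tested higher in the accessory gland, a median difference of 3.09, and 30 after either scaling.

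Other clusters were divided. The cluster of protein folding and signal peptide processing, functions of the endoplasmic reticulum through which secreted proteins pass, was described by the study as salivary gland expression. The accessory gland listed with it is the tissue of the fly clusters it overlapped. Like the others it was made from these arrays, so its direction is not independent evidence. In this mosquito cluster 11 of 26 genes were higher in the accessory gland (42.3%, beside 17.5% of all probes) and 3 in the testis, with a median difference of 0.50. After quantile normalization these counts were 22 and 0, and after centring 13 and 1. In the clusters that the study assigned to the carcass, annotated with metabolic process and cellular respiration, 2 of 59 genes were higher in the accessory gland and 21 (35.6%) in the testis in one, and 21 and 40 (44.4%) of 90 in the other, both testis shares lying below the 54.0% of all probes tested. After centring these counts were 12 and 13 in the first and 24 and 29 in the second, and after quantile normalization both turned, to 16 and 12 and to 29 and 24. The cluster of the head (phototransduction and signal transduction) had 2 of 21 genes higher in the accessory gland and 12 (57.1%) in the testis, close to the share of all probes, and 5 and 9 after quantile normalization. The 3 clusters of the midgut and Malpighian tubules, annotated with transmembrane transport and carbohydrate metabolic process, had 27.1%, 30.3% and 32.4% of their 96, 33 and 37 genes higher in the accessory gland, beside 17.5% of all probes, and 29.2%, 57.6% and 29.7% higher in the testis. Their counts of 26 and 28, 10 and 19, and 12 and 11 became 49 and 14, 12 and 12, and 17 and 2 after quantile normalization.

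The chromosome arms differed in the direction of the comparison, and the X stood apart. Of 301 X-linked probes tested 158 (52.5%) were higher in the accessory gland and 37 (12.3%) in the testis. On the 4 autosomal arms together 858 of 5625 probes (15.3%) were higher in the accessory gland and 3189 (56.7%) in the testis. The median difference was 1.08 on the X and -1.44 on the autosomes, where the arms ranged from -1.36 on 2R to -1.50 on 3R. These medians lay 2.52 apart on the log2 scale (2.47 after quantile normalization), but they include probes tested only because they were high in 1 tissue. Over the probes detected in both tissues the distance was 1.14, and 1.13 after quantile normalization. Centring adds a constant to each array and leaves both distances as they were. Among the probes detected in both tissues 42.5% of 174 X-linked probes were higher in the accessory gland and 5.75% in the testis, beside 15.7% and 35.3% of 2836 autosomal probes. Probes of an arm are not independent samples, so these shares are given without a test.

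**Figure D4:**
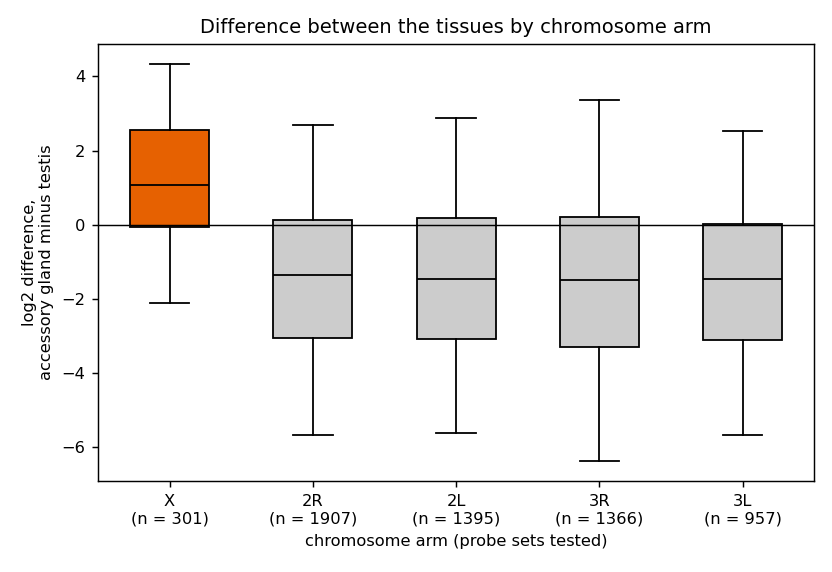
Log2 difference (accessory gland minus testis) of the probes tested on each chromosome arm, with boxes for the quartiles, lines for the medians and whiskers for the 5th and 95th percentiles. The median is 1.08 on the X and between -1.50 and -1.36 on the autosomal arms.

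The X differed on every array. Over the probes detected in both tissues, the median X-linked level minus the median autosomal level was -1.15, -1.16, -0.98 and -0.93 on testis arrays 1 to 4 and 0.42, 0.54, 0.70 and 0.64 on accessory gland arrays 1 to 4. The lowest accessory gland value came from array 1, and the arrays of the tissues did not overlap. The same quantity was set beside the other groups over 121 X-linked and 1708 autosomal probes detected in all 15 groups. It was -1.24 ± 0.17 in the testis, -0.64 ± 0.20 in the ovary and 0.19 ± 0.09 in the accessory gland (SD, n = 4), and the other 12 groups ranged from -0.15 ± 0.10 in the female whole body to 0.27 ± 0.07 in the male salivary gland. The highest testis array (-1.07) lay under the lowest ovary array (-0.83), and the accessory gland lay within the range of those 12 groups.

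**Figure D5:**
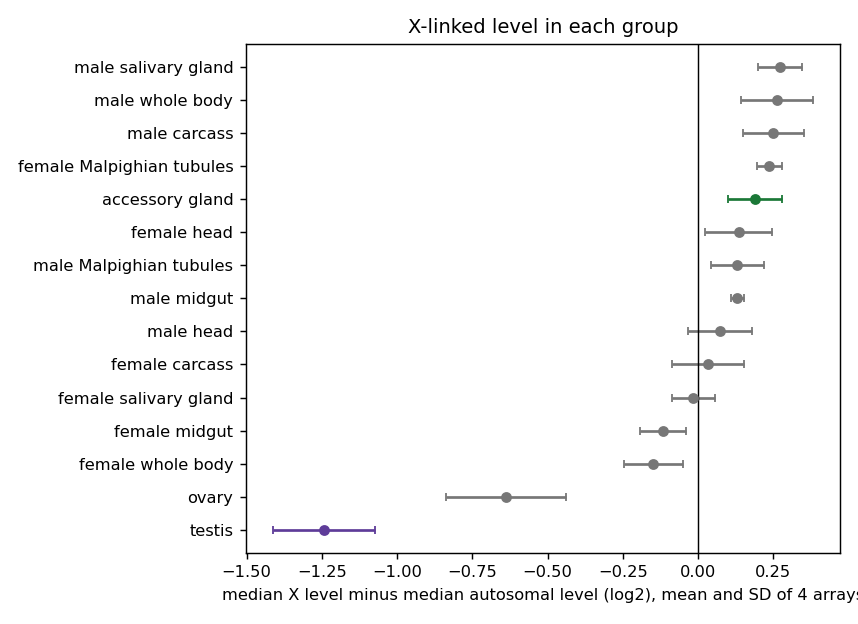
Median log2 level of 121 X-linked probes minus that of 1708 autosomal probes in each of the 15 groups, as the mean (points) and SD (bars) of 4 arrays, with the testis in purple and the accessory gland in green. The testis (-1.24) and the ovary (-0.64) lie below all other groups, and the accessory gland (0.19) lies among the rest.

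X-linked genes higher in the testis were few, and the 3 with the largest differences were chosen after their values were seen. AGAP001076 read 11.18, 11.36, 10.81 and 11.27 in the testis and 8.44, 6.01, 6.96 and 6.32 in the accessory gland, a log2 difference (accessory gland minus testis) of -4.22 ± 0.47 (SE, adjusted p = 1.81e-05, limma). It was brighter still in the male carcass, at 12.60 ± 0.09 (SD, n = 4). AGAP001058 was at least 9.87-fold higher in the testis and AGAP000354 3.61-fold higher. After quantile normalization the log2 difference of AGAP000354 was -0.70 and no longer passed the call. Of the 929 testis probes found in no other tissue 4 (0.431%) lie on the X, against 18 of the 103 accessory gland probes (17.5%). The X holds 4.86% of all probes tested and 8.31% of the mosquito probes on the array.

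Markers of tissues that surround the reproductive tract differed between the dissections, the fat body marker being detected in both tissues and the muscle marker in the accessory gland alone. The fat body marker AGAP001826, entered as lipophorin, a lipid carrier of the haemolymph, read 9.61, 9.15, 10.49 and 10.14 in the testis and 7.22, 5.27, 7.89 and 6.16 in the accessory gland. The log2 difference (accessory gland minus testis) was -3.21 ± 0.54 (SE, adjusted p = 0.000376, limma), and AGAP001826 was at 13.08 ± 0.34 and 12.76 ± 0.47 in the female and male carcass (SD, n = 4). The muscle marker AGAP010147, entered as a myosin heavy chain, read 6.67, 7.59, 6.82 and 6.55 in the accessory gland and 3.56, 3.55, 3.55 and 3.55 in the testis, at least 3.76-fold higher in the accessory gland (adjusted p = 3.34e-07, limma). AGAP001826 and AGAP010147 were the only fat body and muscle genes joined to a probe, and the part of other tissue in the comparison was not tested. The germ cell markers written for the testis (beta-2 tubulin, vasa, zero population growth and nanos) were not joined to a probe and are not analysed here.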

How the data were processed

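RNA of 15 groups of adult *Anopheles gambiae* was hybridized to 60 Affymetrix arrays, and the 4 accessory gland and 4 testis arrays were compared here. The deposited intensities were made by the authors with GCRMA within each tissue and are linear values. Their lowest value was 5.27 on every accessory gland array and 5.09 on every testis array, and no depth applies to arrays. The values were taken as log2 without further scaling, and only probe sets with identifiers beginning with Ag. (16884 of 22761) were used. A probe set was detected at log2 5 (intensity 32) or above in 3 of 4 arrays of a group, which stands in for the mismatch calls of the authors.

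The tissues were compared with limma 3.58.1 in R 4.3.3 (lmFit, eBayes, Benjamini-Hochberg adjustment over all 6188 tested), with calls at a log2 difference of at least 1 and adjusted p under 0.05. Tested on simulated data drawn for this comparison (200 of 6188 probe sets changed), it recovered 88% of changes of 1.5 and 97% of changes of 3 on the log2 scale, with 3 false among 188 calls. In the simulation as many probe sets rose as fell, no floor held low values, and the tissues did not differ in scale. The comparison itself called 71.5% of probe sets, so these figures do not carry over to it. Folds were computed with values under log2 5 set to 5, and are lower bounds where a tissue was under it on all 4 arrays. Replicate numbers in the labels paired the samples by the check used: deviations from the tissue means correlated at 0.15 to 0.25 between arrays of the same number in all 4 pairs.

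Genes were named by matching relative abundance over at least 3 tissues, computed from the intensities, to that in the study's orthologue tables (first part only). Of 1352 identifiers 1174 matched exactly 1 probe set within 0.0006, against a mean of 3.45 after 20 shuffles. All 1155 with a known arm and a neighbour lay on the arm of a neighbour by identifier. Chromosome arms were read from probe set identifiers. No table used here annotates functions, so the marker names of AGAP002429, AGAP001826 and AGAP010147 come from the marker lists and not from the files, and lists defined by product names could not be used. Named were the 15 genes each way with the largest such difference and no overlap, genes of the lists, 2 unnamed probe sets each way and the 5 brightest genes each way detected in every group. Of several probe sets of a gene the brightest was kept. Members and lists were chosen with earlier results of these data known. Alternatives changed the scaling, detection limit, filters, threshold, variance model, replicate block, arrays in the fit and each array left out. Python 3.11.15 with numpy 2.4.6, pandas 2.3.3, scipy 1.17.1 and matplotlib 3.10.9 was used.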

Additional observations from a re-analysis of the deposited data

Results flagged for a closer look

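On accessory gland array 1, testis genes were far above the other 3 arrays of the tissue. It held 40 of the 106 bright testis probes at log2 5 or above, with a median of 4.44, and had outlying values for AGAP001620 (7.32), AGAP009940 (6.82), AGAP002365 (5.89), AGAP001735 (5.28), AGAP001229 (5.79) and AGAP004937 (7.98). The same array was the closest of its tissue to the testis, with a mean correlation of 0.32 over the probes tested against 0.25 to 0.26 for the others. The part of this array in the comparison was bounded by leaving it out, which left all 15 leading testis genes called.

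Single arrays also lay apart by small amounts from close replicates. These were AGAP002429 on accessory gland array 3 (12.53), AGAP001274 on accessory gland array 4 (13.95), AGAP009940 on testis array 4 (12.95), AGAP001639 on testis array 3 (12.79), and the number of probes at or above log2 5 on testis array 4 (5779). Chance gives about 1 such value in 20 groups of 4 arrays, and whether the values listed exceed that rate was not tested. Groups with all 4 arrays under the limit were not examined for outlying values.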

How the results depend on the processing

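Which tissue a probe was called in did not change under any alternative run, but the counts did. Quantile normalization gave 1969 probes higher in the accessory gland, a log2 difference of at least 2 gave 603, and restriction to probes detected in both tissues, added after the data were seen, gave 555 in the accessory gland and 1053 in the testis. Quantile normalization also made the numbers detected in the accessory gland alone (1403) and the testis alone (1399) nearly equal, and a limit of log2 6 left 2098 probes detected in both. The share of X-linked calls that were higher in the testis was 19.0% as deposited, 12% after centring and 6.43% after quantile normalization. Leaving out each array in turn gave 1062 to 1116 probes higher in the accessory gland and 3307 to 3410 in the testis. With the replicate number as a block, 1086 and 3355 probes were called, which included all 1082 and 3341 of the unblocked fit. The further calls were probes not called without the block. Named genes were compared under some of these alternatives and not all. Of 676 such values 675 kept their direction and side of the 2-fold threshold, and the exception was AGAP000354 after quantile normalization. AGAP000354 (-1.85 as deposited) also falls short of the stricter log2 difference of 2. The scalings differ by construction, and which is closer to the RNA per cell of each tissue was not tested.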
